A study of Arabidopsis thaliana with 20 samples.

Results

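The intergenic DNA of the first inverted repeat copy and of the small single-copy region of the Arabidopsis thaliana plastid genome was cut into 25 bp bins between positions 84176 and 128200 (TAIR10). A bin was kept where its centre lay in no annotated plastid gene, with introns and the tRNA genes of the rRNA operon counted as genic. This left 424 of the 5128 bins of the first 3 regions of the genome, 291 in the repeat (of 1050 bins there) and 133 in the small single-copy region (of 711). They formed 26 runs between neighbouring genes, called spacers here and named by the genes on either side, 15 in the repeat and 11 in the small single-copy region. The longest was rps7-trnV with 110 bins and the shortest rps19-rpl2 with 2. Neighbouring bins share reads and were not treated as replicates.

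The libraries came from in vivo protein occupancy display (IPOD), in which formaldehyde fixes proteins to DNA and the DNA that stays with protein (IPOD) is sequenced beside unfractionated DNA (input). Leaf libraries (4 IPOD, 4 input) were from rosette leaves of 14-day wild-type Col-0 plants on soil, whose chloroplasts were isolated first and then fixed. Seedling libraries were from plants of about 4 days on plates, fixed before isolation, of wild-type Col0 (3 IPOD, 3 input) and of the pTAC3 group, labelled as the ptac3 mutant (3 IPOD, 3 input). All groups were fixed in 4% formaldehyde for 4 h, with 5 g of leaf or 50 seedlings to a sample. The labels of the third Col0 IPOD library disagree (Col0 in its title, ptac3 as its cell line), and it was kept as Col0, and the pTAC3 libraries carry wild type as a genotype label. PTAC3 is a nuclear gene, so plastid depth holds no check of the mutant. The third Col0 IPOD library had 1 position at a depth of 0. The other Col0 libraries had 48 to 156 such positions, and the pTAC3 libraries 1 to 184. Whether this bears on its label was not tested. Leaf and seedlings differed in age, tissue, growth and order of fixation at once, and no test was made between them. Nothing in the labels says that replicates were separate cultures or plants, so p-values measure the spread between these libraries.

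The plastid genome is a circle with 2 single-copy regions kept apart by a pair of inverted repeats. The repeat holds the rRNA operon, in which the 16S, 23S, 4.5S and 5S rRNA genes and 2 intron-bearing tRNA genes are transcribed together, and the DNA between trnV and the 16S gene carries that operon's promoter. The small single-copy region holds mostly ndh genes, which encode subunits of the NDH complex of cyclic electron flow. Plastid genes are read by a plastid-encoded RNA polymerase and by nuclear-encoded phage-type polymerases. pTAC3 is a nuclear-encoded protein that associates with the plastid-encoded polymerase, and mutants that lack it fail to green.

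Depth at each position was divided by the library's own mean (scaled depth), and the ratio of IPOD to input was taken on the log2 scale after adding 10% of the median bin. A pair is an IPOD and an input library with the same replicate number. Mean depth was between 54.5 and 3383 reads per position across the 20 libraries. Input was thinner over the small single-copy spacers in seedlings: the median scaled input depth of its intergenic bins was 0.916 in leaf, 0.320 in Col0 and 0.486 in pTAC3 seedlings, against 0.975, 1.11 and 1.04 in the repeat. The lowest of these bins held a mean of 1.68 reads per position in a pTAC3 IPOD library. From the 2 copies of the repeat, counting noise of the intergenic bins was between 0.029 and 0.215 (SD, log2 scale) in a library. The leaf libraries stood apart from each other. Over the repeat's intergenic bins, 2 leaf libraries of a group differed by an SD of 0.152 to 1.03 (log2 scale), with 0.442 or more in every case but libraries 1 and 3, which differed by 0.159 in IPOD and 0.152 in input. Counting noise alone would give an SD of 0.137 for IPOD 1 and 3 and 0.072 for input 1 and 3. For the other leaf comparisons it would give 0.045 to 0.251. Leaf IPOD 1 and 3 thus differed by little more than counting noise. The corresponding SD between 2 seedling libraries of a group was 0.175 to 0.357.

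In the mean of the leaf pairs, IPOD depth was above input over the rRNA operon and the tRNA genes that follow it. The leaf mean was below input over the long rps7-trnV spacer, where pair 4 was above 0 at 0.076. It was also below input over nearly all of the small single-copy region, where 6.77% of the intergenic bins had a ratio above 0. In Col0 seedlings the repeat had its maximum between trnV and the 16S gene, and lower values than leaf after the operon, while the pTAC3 seedlings had a nearly flat ratio. The median log2 ratio of the repeat's intergenic bins was -0.07 in leaf (pair medians -0.161, -0.013, -0.131 and 0.169), -0.10 in Col0 (pair medians -0.111, -0.182 and -0.029) and -0.03 in pTAC3 (pair medians -0.037, -0.020 and -0.038). The 3 groups overlapped in these medians. In the small single-copy region the medians were -0.32 in leaf, -0.04 in Col0 and -0.02 in pTAC3. All 4 leaf pairs were below 0 there, with pair medians of -0.406, -0.073, -0.320 and -0.464. Over all 5128 bins the medians were -0.12, -0.08 and 0.03. When each library was centred on its median bin instead of its mean, the median of all bins moved from -0.12 to -0.02 in leaf, from -0.08 to 0.02 in Col0, from 0.03 to -0.03 in pTAC3 and from 0.12 to -0.04 in the pTAC3 minus Col0 difference, so the values below are relative to the library mean.

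**Figure D1:**
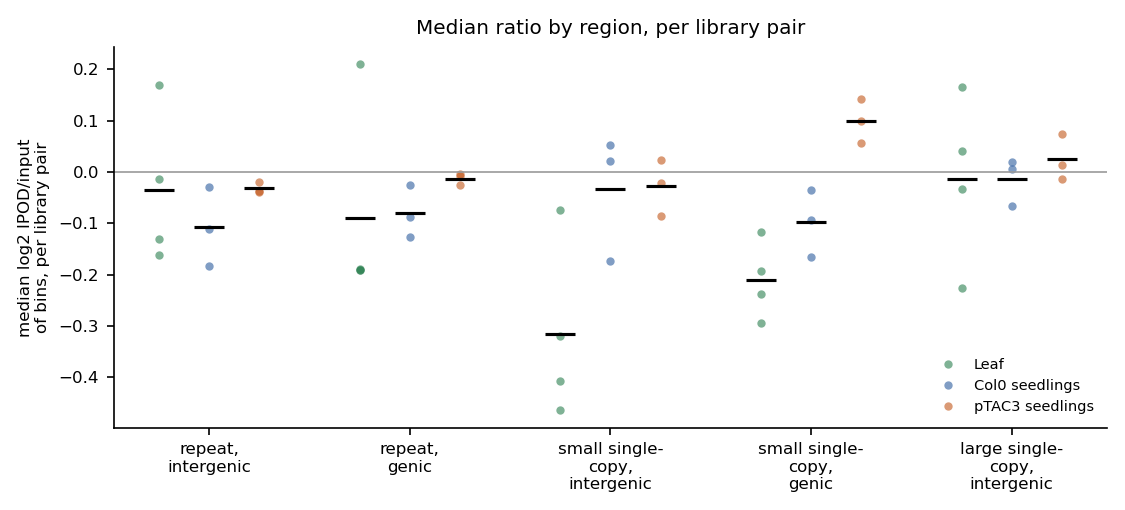
Median log2 IPOD/input of the bins of a region (y axis), 1 point per pair of libraries, with a bar at the mean of the pairs, for intergenic and genic bins of the repeat and the small single-copy region and for intergenic bins of the large single-copy region. Leaf pairs 1, 3 and 4 were lowest in the intergenic bins of the small single-copy region, at -0.406, -0.320 and -0.464, and pair 2 was lowest in the genic bins of the repeat, at -0.191.

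The spread over bins differed between the groups in the repeat. The bins of the repeat at the 10th and 90th percentiles lay at -0.40 and 0.55 in leaf, at -0.40 and 0.39 in Col0 and at -0.16 and 0.14 in pTAC3. In the small single-copy region they lay at -0.53 and -0.14 in leaf, -0.29 and 0.28 in Col0 and -0.23 and 0.16 in pTAC3, so that leaf was shifted there rather than wider than pTAC3. Along the 291 bins of the repeat, the mean ratios of leaf and Col0 correlated with a Pearson r of 0.821, those of Col0 and pTAC3 with 0.374 and those of leaf and pTAC3 with 0.158. In the small single-copy region the same values over 133 bins were 0.346, 0.162 and 0.098. By rank, leaf and Col0 had almost no likeness there, with a Spearman rho of 0.0687, against 0.814 in the repeat. These are descriptions across neighbouring bins that share reads and base composition. Single pairs of one group correlated with each other at 0.705 to 0.846 in Col0, 0.459 to 0.940 in leaf and 0.214 to 0.248 in pTAC3 over the repeat, so the pTAC3 pairs had little contour in common.

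**Figure D2:**
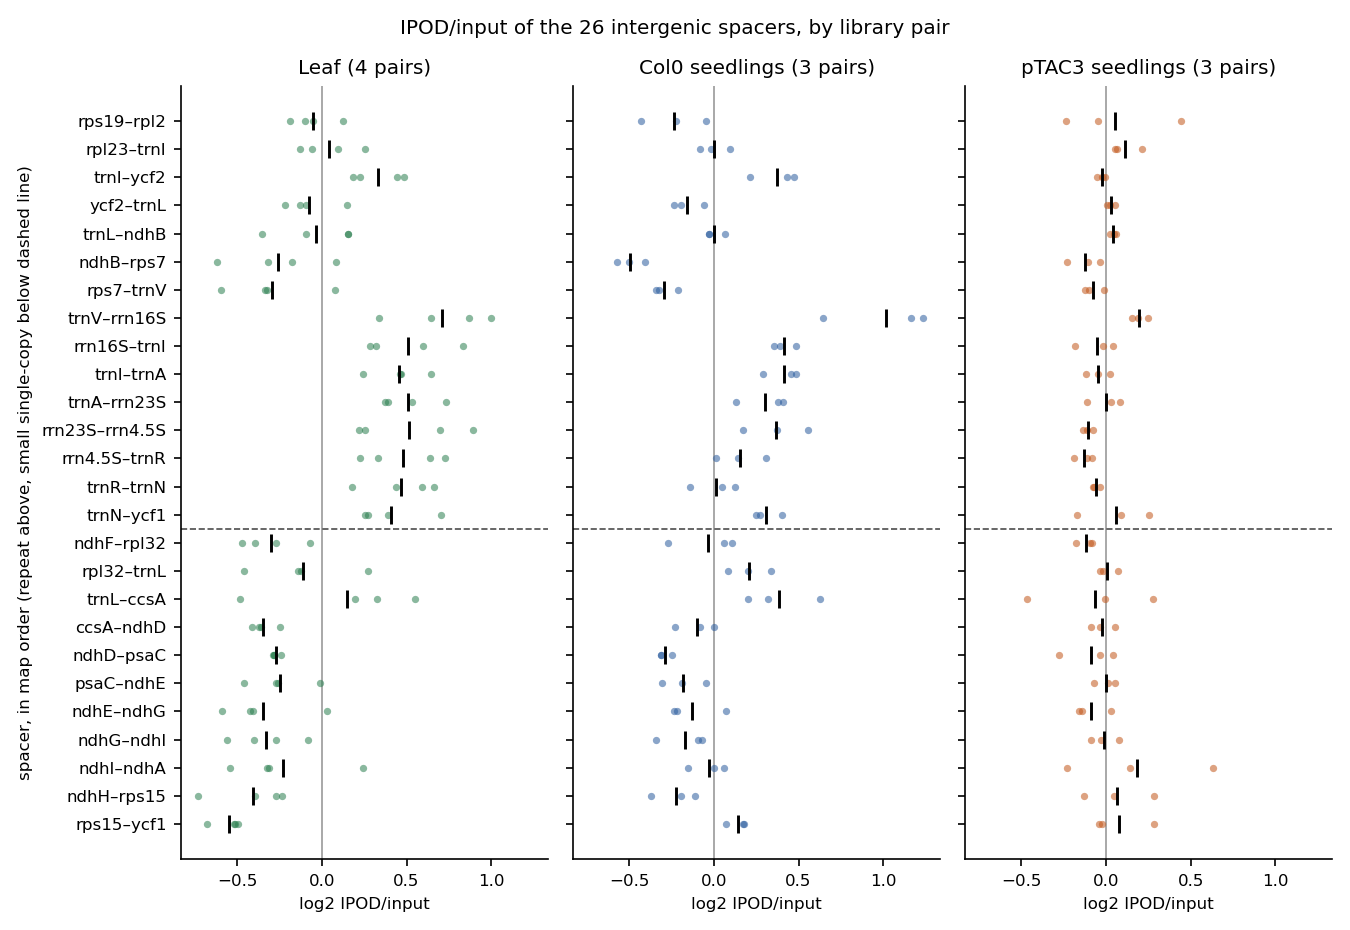
Log2 IPOD/input of the mean scaled depth of each of the 26 spacers (x axis) in map order (y axis), with 1 point per pair of libraries and a black tick at the mean; the dashed line parts the repeat (above) from the small single-copy region. The trnV-rrn16S spacer was highest in all 3 groups, at 0.71 in leaf, 1.01 in Col0 and 0.20 in pTAC3, and the lowest pTAC3 mean was -0.13.

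The spacer between trnV, the gene of a valine tRNA, and the 16S rRNA gene (rrn16S, the small-subunit rRNA) covered positions 100776 to 101000 in 9 bins. In Col0 seedlings its scaled depth was 2.74, 2.68 and 2.0 in the IPOD libraries and 1.12, 1.15 and 1.26 in input. Every IPOD value was above every input value. The log2 ratio rose by 1.01 ± 0.11 (SE; pairs 1.24, 1.16 and 0.64), with an adjusted p of 0.00015 by limma over 212 genes and spacers, and with any 1 library left out it was 0.94 to 1.15 (adjusted p 7.8e-06 to 0.00175). This was the lowest adjusted p of the 26 spacers.

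In pTAC3 seedlings the same spacer had scaled depths of 1.18, 1.22 and 1.17 in IPOD and 1.06, 1.06 and 0.975 in input. The groups did not overlap, but the step was small: the log2 ratio was 0.20 ± 0.11 (SE), with an adjusted p of 0.999. The difference in ratio between pTAC3 and Col0 was -0.82 ± 0.15 (SE; adjusted p = 0.0231 by limma), and the 3 pTAC3 pairs (0.156, 0.188 and 0.247) all lay below the lowest Col0 pair of 0.644. It was the only spacer of the 26 called in that comparison, where 1.42% of the 212 features were called lower and 0.0% higher. The call held without Col0 IPOD 3 and without pTAC3 input 1, input 3 or IPOD 1. It was lost without Col0 input 1 (adjusted p = 0.0606), 2 (0.0746) or 3 (0.0696), without Col0 IPOD 1 (0.0693) or 2 (0.0765), without pTAC3 input 2 (0.0651), and without pTAC3 IPOD 2 (0.0566) or 3 (0.067), while the difference itself stayed between -0.96 and -0.74 by limma.

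In leaf, scaled depth of trnV-rrn16S was 1.4, 3.43, 1.16 and 1.47 in IPOD and 0.725, 1.67, 0.707 and 1.14 in input. IPOD was above the input of its own number in all 4 pairs, but input library 2 was above 3 of the IPOD libraries. The log2 ratio was 0.71 ± 0.34 (SE; pairs 0.868, 0.999, 0.644 and 0.335). It was not called by limma without the pairing (adjusted p = 0.588) and was called with the replicate number as a block (adjusted p = 0.0462).

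In the mean of each group the ratio was highest inside the spacer, not at its edges. Single pairs differed from this. Within the spacer, pTAC3 pair 1 was highest in the bin next to trnV, at 0.266. Leaf pairs 1 and 3 reached 1.076 and 0.732 in the spacer but 1.185 and 0.805 in rrn16S. In Col0 it went from 0.53 in the bin next to trnV to 1.30 at 100876 to 100900 and 1.30 in the next bin, then to 0.62 in the bin next to rrn16S. All 9 bins passed the limma test in Col0, with adjusted p between 0.0013 and 0.0347. The pTAC3 summit was in the same bin, at 0.28, and none of the 9 bins was called. In leaf the ratio reached 0.82 at 100901 to 100925 and was still 0.72 next to rrn16S. The flanking genes were lower: in Col0 the 3 bins of trnV had a mean ratio of 0.28 (adjusted p = 0.0703) and the 60 bins of rrn16S 0.37 (adjusted p = 0.188), neither of which passed limma's test. In leaf the 16S gene stood at 0.50, nearer to its spacer than in Col0. In leaf pair 4 the gene was at 0.336 and the spacer at 0.335.

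**Figure D3:**
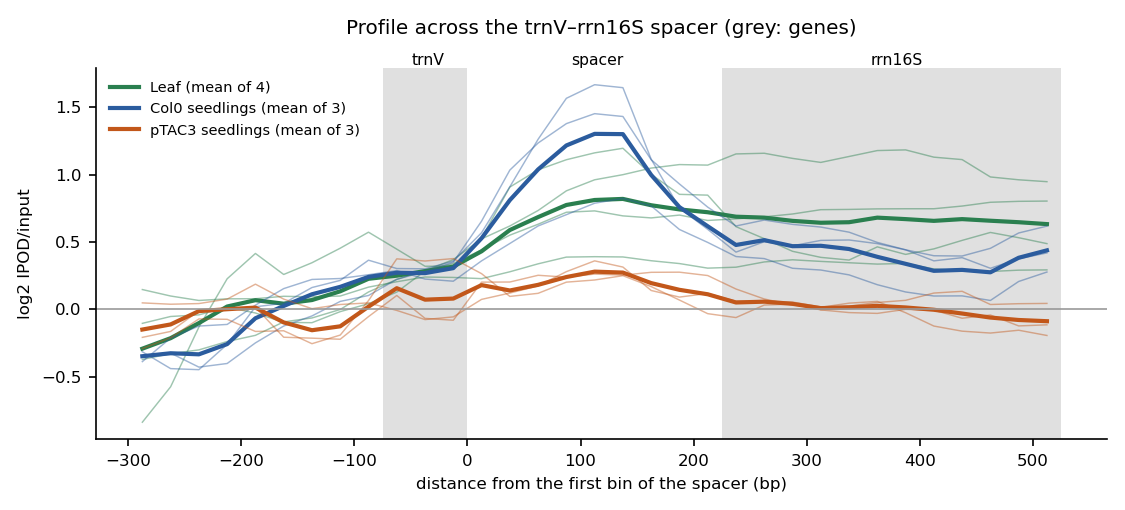
Log2 IPOD/input per 25 bp bin (y axis) against the distance in bp from the first bin of the trnV-rrn16S spacer (x axis), with thin lines for pairs, thick lines for group means and grey shading for genes. The Col0 mean peaked at 1.30 and the pTAC3 mean at 0.28 in the same bin, while the leaf mean stayed between 0.63 and 0.69 over the start of rrn16S.

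The other 4 spacers that border an rRNA gene, all downstream of trnV-rrn16S, lie inside or just after the operon. Their leaf ratios were alike: 0.51 for rrn16S-trnI (trnI encodes an isoleucine tRNA), 0.51 for trnA-rrn23S (trnA encodes an alanine tRNA), 0.52 for rrn23S-rrn4.5S and 0.48 for rrn4.5S-trnR (trnR encodes an arginine tRNA). All 4 pairs were above 0 in each of them. Pairs 1 and 3 ran from 0.53 to 0.89 and pairs 2 and 4 from 0.222 to 0.39, so the pairs were less alike than the means. In the same order the SE was 0.475, 0.224, 0.655 and 0.319. None was called in leaf by the unpaired limma fit (adjusted p = 0.588 to 0.716). The median of the 5 rRNA-flanked spacers was 0.51 in leaf, 0.36 in Col0 and -0.05 in pTAC3, and their pTAC3 minus Col0 differences were all negative, from -0.82 to -0.28. For the spacers of the large single-copy region with a tRNA but no rRNA gene beside them (33 spacers), the same medians were 0.27, 0.10 and 0.04. The annotation used has no entry for the 5S gene, which lies in the rrn4.5S-trnR spacer, so that spacer is not wholly free of rRNA sequence.

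None of these 4 passed the unpaired limma test in Col0. The nearest was rrn16S-trnI, with log2 ratios of 0.357, 0.485 and 0.393 in its pairs, a mean of 0.41 ± 0.125 (SE) and an adjusted p of 0.0593. One bin of it, at 102626 to 102650, was called higher on its own (log2 ratio 0.47, adjusted p = 0.0479). Between trnI and trnA, the 3 bins of the trnI-trnA spacer had pairs of 0.458, 0.487 and 0.289 in Col0, a mean of 0.41 ± 0.11 (SE) and an adjusted p of 0.0374. The pTAC3 pairs of that spacer were -0.049, 0.026 and -0.117. Centring the libraries ended its call (ratio 0.51, adjusted p = 0.0936), as did leaving out Col0 input 1 (0.0959), 2 (0.142) or 3 (0.114), Col0 IPOD 1 (0.187) or 2 (0.128), pTAC3 input 2 (0.0584) or pTAC3 IPOD 2 (0.0591), with ratios of 0.37 to 0.47 over all libraries left out. Input depth was high over these spacers in seedlings, with a highest mean of 2.94 in Col0 and 2.57 in pTAC3 at rrn23S-rrn4.5S (1.81 in leaf), and its part in the ratios was not tested.

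Beyond the operon, trnR-trnN (trnN encodes an asparagine tRNA) had higher values in leaf than in seedlings. Its leaf pairs were 0.661, 0.440, 0.592 and 0.177, and its Col0 pairs were -0.140, 0.049 and 0.124. All leaf values were above all Col0 values, with no test between them. A summit stood at 108526 to 108550, where the log2 ratio was 0.89 in leaf, 0.76 in Col0 (adjusted p = 0.0514 by limma) and 0.05 in pTAC3. Over the whole spacer, leaf was above 0 in all 25 bins while Col0 was below 0 in 13.

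The next spacer, trnN-ycf1, ends at the shortened copy of ycf1, which encodes a protein of the inner envelope import machinery. Its 13 bins had Col0 pairs of 0.251, 0.403 and 0.273. Each Col0 IPOD library was above each input library, and the ratio rose by 0.31 ± 0.08 (SE; adjusted p = 0.0374 by limma). Its highest bins, at 109226 to 109275, stood at 0.62 and 0.64 in Col0 and at 0.27 and 0.24 in pTAC3, and the first of them was called in Col0 (adjusted p = 0.0291). The spacer call was lost under many changes of sample: without Col0 input 1 (0.105), 2 (0.143) or 3 (0.114), Col0 IPOD 1 (0.0923), 2 (0.148) or 3 (0.0879), pTAC3 input 2 (0.0586) or pTAC3 IPOD 2 (0.0591), and where only bins wholly outside genes were used (0.0573). The ratio stayed between 0.28 and 0.34 in all of these.

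At the other end of the repeat, trnI-ycf2 lies between an isoleucine tRNA gene and ycf2, a large gene of the plastid import motor. The 4 bins had scaled depths of 1.41, 1.59 and 1.29 in Col0 IPOD and 1.02, 1.12 and 1.10 in Col0 input. IPOD and input did not overlap. The ratio rose by 0.37 ± 0.09 (SE; adjusted p = 0.0261 by limma) and was 0.33 ± 0.17 (SE) in leaf and -0.03 ± 0.09 (SE) in pTAC3. Its call was lost without Col0 input 1 (adjusted p = 0.0959), 2 (0.0655) or 3 (0.0789), or without Col0 IPOD 1 (0.0859) or 2 (0.127), with ratios of 0.30 to 0.44 over all libraries left out. The difference between the genotypes, -0.40 ± 0.13 (SE), was not called (adjusted p = 0.219) but was with centred libraries (adjusted p = 0.0253), which called 2 of the 26 spacers lower, beside 3.3% of the 212 features.

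The lowest spacer ratios of the repeat, in Col0 and in the leaf mean, lay between ndhB and trnV. Low Col0 values were not confined to these 2 spacers. In Col0 the ycf2 gene had a log2 ratio of -0.258 (275 bins, adjusted p = 0.041 by limma) and the ndhB gene -0.269 (89 bins, adjusted p = 0.0374). The ycf2-trnL spacer was at -0.161 in Col0, with 35 of its 37 bins below 0. The rps7 gene was at -0.121 (adjusted p = 0.397). The ndhB-rps7 spacer, between a subunit gene of the NDH complex and a gene of the small ribosomal subunit, had scaled depths of 0.822, 1.04 and 0.993 in Col0 IPOD and 1.26, 1.5 and 1.34 in Col0 input. All IPOD values were below all input values. The log2 ratio fell by 0.49 ± 0.10 (SE; adjusted p = 0.00934 by limma), and all 12 of its bins were below 0, with 6 called. Without Col0 input 2 (adjusted p = 0.058) or Col0 IPOD 1 (0.0553) the spacer was no longer called, with ratios of -0.43 and -0.40. Leaf pairs were -0.175, -0.621, -0.317 and 0.084 and pTAC3 pairs -0.231, -0.107 and -0.033.

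The rps7-trnV spacer had a shallower deficit over its 110 bins. The Col0 pairs were -0.326, -0.341 and -0.212, and the ratio fell by 0.29 ± 0.08 (SE; adjusted p = 0.0366 by limma). In Col0, 103 of its 110 bins were below 0 and 4 were called, at 99076 to 99125, 99401 to 99425 and 99726 to 99750. In leaf the pairs were -0.334, -0.596, -0.325 and 0.076, so pair 4 went the other way. The leaf mean of -0.295 ± 0.195 (SE) was not called by limma (adjusted p = 0.668, or 0.103 with the replicate block). In the leaf mean 104 bins were below 0. The 6 above 0 were the 6 nearest to trnV, where the ratio climbed to 0.23. In pTAC3 88 bins were below 0, but the median was -0.07. The annotation used has no entry for the 3′ exons of the trans-spliced gene rps12, which lie beside rps7 in this spacer. The spacer was no longer called with centred libraries (-0.20, adjusted p = 0.252) or without Col0 input 1 (0.0959), 2 (0.147) or 3 (0.1), Col0 IPOD 1 (0.187), 2 (0.113) or 3 (0.0562), pTAC3 input 2 (0.0584) or pTAC3 IPOD 2 (0.054), with ratios of -0.32 to -0.25 over these libraries. It holds 110 of the 291 bins of the repeat. Without it and rrn4.5S-trnR together, the median ratio of the repeat was 0.17 in leaf, 0.01 in Col0 and 0.01 in pTAC3.

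**Figure D4:**
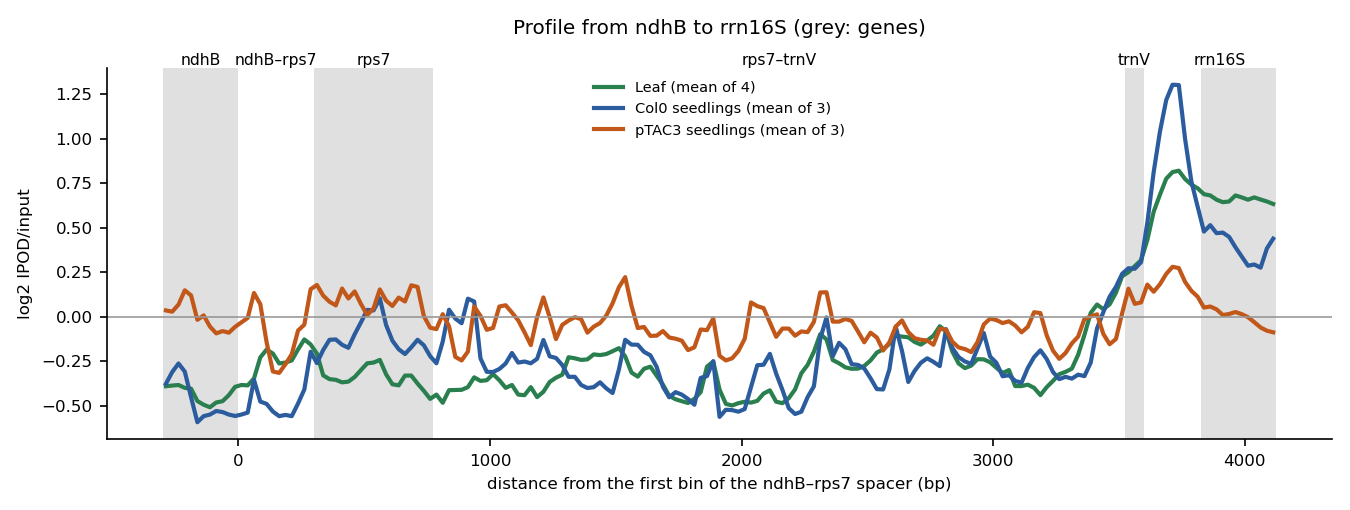
Mean log2 IPOD/input per 25 bp bin (y axis) from the end of ndhB to the start of rrn16S, against the distance in bp from the first bin of the ndhB-rps7 spacer (x axis), for leaf (4 pairs) and Col0 and pTAC3 seedlings (3 pairs each), with genes in grey. Leaf and Col0 lay below 0 over most of both spacers, down to -0.50 and -0.56, and crossed 0 before trnV. The lowest pTAC3 bin was -0.32, in ndhB-rps7.

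Bins of the repeat were also grouped by the kind of gene nearest to them and the distance to it. The 47 bins within 100 bp of a tRNA gene had a median ratio of 0.47 in leaf, 0.17 in Col0 and -0.02 in pTAC3. The 104 bins nearest to a tRNA gene but further away had -0.07, -0.18 and -0.04. Near an rRNA gene (19 bins within 100 bp) the medians were 0.48, 0.36 and -0.09. The 10 bins nearest to an rRNA gene but further away stayed at 0.43, 0.20 and -0.09. Near a protein-coding gene (31 bins within 100 bp) the medians were -0.16, -0.14 and 0.01, and in the 80 bins further away -0.28, -0.25 and -0.02. The operon holds most of the rRNA-near bins and several of the tRNA-near ones, so kind of gene and place cannot be told apart here.

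In counts of bins, 12 of the repeat's 291 intergenic bins were called higher and 10 lower in Col0, beside 1.64% and 0.995% of all 5128 bins. The higher bins were 9 of trnV-rrn16S and 1 each of trnI-ycf2, rrn16S-trnI and trnN-ycf1. With centred libraries the split was 18 higher and 3 lower, beside 3.26% and 0.488% of all bins. The count of 22 fell to 5, 5 and 7 without Col0 input 1, 2 or 3, to 6, 5 and 11 without Col0 IPOD 1, 2 or 3, to 11 without pTAC3 input 2 and to 9 without pTAC3 IPOD 2, and it was 40 without pTAC3 input 1. Of the 26 spacers 4 were called higher and 2 lower, all in the repeat, beside 7.08% and 2.83% of the 212 features. In leaf no bin and no spacer was called by the unpaired limma fit (0.0% of all bins and features), while 23 bins of the repeat were higher and 4 lower at an unadjusted p under 0.05, and 8 small single-copy bins were lower, beside 148 higher and 32 lower of all 5128 bins. The same fit called none in pTAC3 (0.0% of bins and of features), where 1 bin of the repeat was higher and 4 lower at an unadjusted p under 0.05, beside 52 and 23 of all bins. For the genotype difference no member bin was called (0.0% of all bins), with 13 bins of the repeat higher and 22 lower at an unadjusted p under 0.05, and 3 lower in the small single-copy region, beside 256 higher and 176 lower of all bins.

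Groups that do not overlap at all give a second count. In leaf, IPOD was wholly above input in 2 spacers of the repeat and wholly below it in 1 of the small single-copy region, beside 2.83% and 0.943% of the 212 features. In Col0 it was above in 8 spacers of the repeat and 2 of the small single-copy region and below in 3 and 2, beside 20.3% and 21.7%. In pTAC3 it was above in 1 and below in 0, beside 2.83% and 0.472%. Between the genotypes, all pTAC3 pairs were above all Col0 pairs in 3 spacers of the repeat and below them in 7 of the repeat and 1 of the small single-copy region, beside 28.3% and 18.4%. The counts between genotypes match libraries by replicate number. The Col0 numbers were not taken as pairs, so these counts depend on that matching.

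The leaf replicate numbers did pair the libraries, and the fit with the number as a block changed the leaf spacers. With it 9 spacers of the repeat were called higher and 4 of the small single-copy region lower, beside 12.3% and 6.13% of the 212 features. The 9 were trnI-ycf2, trnV-rrn16S, rrn16S-trnI, trnI-trnA, trnA-rrn23S, rrn23S-rrn4.5S, rrn4.5S-trnR, trnR-trnN and trnN-ycf1, with ratios from 0.33 to 0.71. The 4 were ccsA-ndhD, ndhD-psaC, ndhH-rps15 and rps15-ycf1, with ratios from -0.55 to -0.27. Adjusted p by limma ran from 0.0462 to 0.0499, close to the threshold of 0.05. Without pair 1, 2 or 3 none of the 26 was called with the block, and without pair 4 the count was 16. No share of the 212 features is given for these fits.

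In the small single-copy region, no spacer was called in either genotype by the unpaired limma fit of all seedlings. Fitted without the pTAC3 libraries, trnL-ccsA (adjusted p = 0.0299) and ndhD-psaC (0.0226) were called in Col0. At the start, ndhF-rpl32 (ndhF encodes an NDH subunit, rpl32 a protein of the large ribosomal subunit) had pairs of -0.393, -0.069, -0.271 and -0.473 in leaf, 0.059, -0.268 and 0.104 in Col0 and -0.177, -0.096 and -0.085 in pTAC3. Its Col0 mean of -0.04 became 0.06 with centred libraries, and none of the 3 means was called by limma (adjusted p = 0.679 in leaf, 0.945 in Col0 and 0.999 in pTAC3). Scaled input depth of this spacer was low in Col0, at 0.255, 0.253 and 0.236.

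The next spacer, rpl32-trnL, ended in the highest intergenic bins of the region in the Col0 and leaf means, but not in pTAC3. Over the whole spacer the Col0 pairs were 0.337, 0.201 and 0.085 (mean 0.21 ± 0.17, SE; adjusted p = 0.488 by limma), the leaf pairs -0.138, 0.275, -0.123 and -0.460 and the pTAC3 pairs 0.074, -0.019 and -0.037. Its last 2 bins, at 114226 to 114275 beside a leucine tRNA gene, stood at 0.99 and 0.98 in Col0 and were called (adjusted p = 0.0232 and 0.0138). The same bins were at 0.48 and 0.55 in the leaf mean and at 0.05 and -0.01 in pTAC3. Leaf pair 4 was below 0 in both, at -0.239 and -0.173. The first bin of trnL-ccsA, on the other side of the tRNA gene at 114351 to 114375, was called at 0.57 in Col0 (adjusted p = 0.0456). It was 0.41 in the leaf mean (pair 4 at -0.258) and -0.13 in pTAC3. These were the 3 bins called in the small single-copy region (of 133, all higher, beside 1.64% of all bins called higher). The count of 3 was 1 without Col0 input 1 and 0 without Col0 input 2 or 3 or Col0 IPOD 1 or 2, and 2 without pTAC3 input 2 or pTAC3 IPOD 2.

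The tRNA gene between them, trnL (Arthct122), is no intergenic member but carried the same summit. Its ratio in Col0 was 0.82 (adjusted p = 0.0165 by limma), in the leaf mean 0.54 (pair 4 at -0.139) and in pTAC3 -0.14. Its difference of -0.96 between the genotypes was not called (adjusted p = 0.0878). Away from it rpl32-trnL was lowest at -0.45 in leaf (113951 to 113975) and at -0.43 in Col0 (113976 to 114000). In the whole of the short trnL-ccsA spacer (ccsA encodes a protein of cytochrome c assembly) the Col0 pairs were 0.321, 0.628 and 0.199, and the leaf pairs 0.196, 0.551, 0.327 and -0.482. Leaf pair 4 was the only leaf pair below 0, and the leaf mean was 0.15 ± 0.29 (SE).

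**Figure D5:**
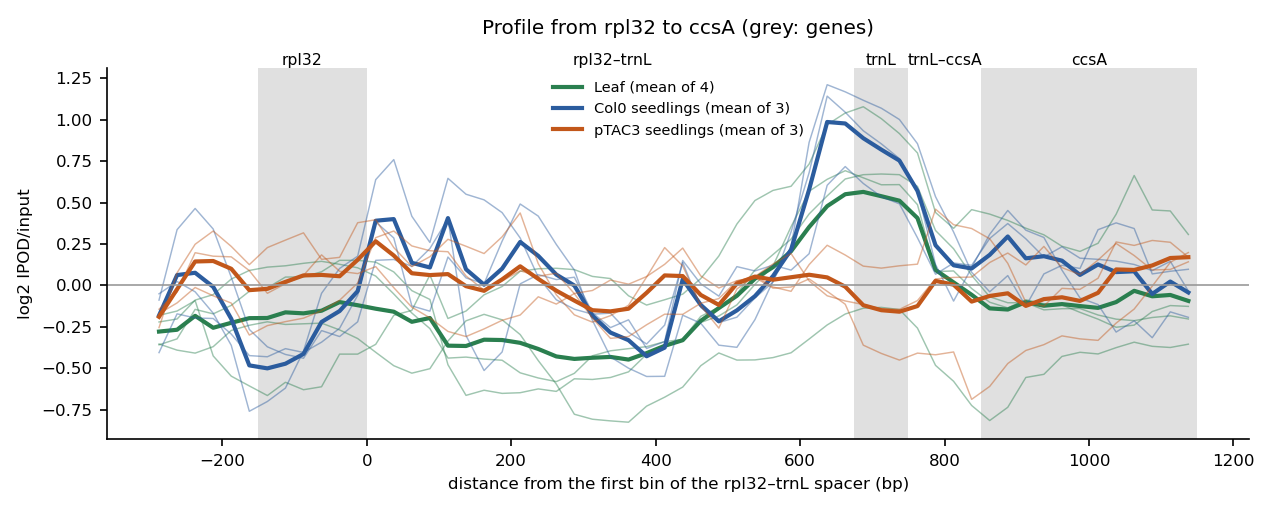
Log2 IPOD/input per 25 bp bin (y axis) from the end of rpl32 to the start of ccsA, against the distance in bp from the first bin of the rpl32-trnL spacer (x axis), with thin lines for pairs, thick lines for group means and genes in grey. The Col0 mean reached 0.99 in the bins before trnL and the leaf mean 0.55, while the pTAC3 mean there was 0.05 or less. Leaf pair 4 was below 0 in the same bins.

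From ccsA to ycf1 the spacers lie between protein-coding genes. With ndhF-rpl32 they made 9 spacers, all below 0 in the leaf mean, from -0.55 to -0.23, with a median of -0.33. In Col0 8 of the 9 were below 0, with a median of -0.13, and in pTAC3 5, with a median of -0.01. Centring the libraries left all 9 leaf means below 0 and turned those of ndhF-rpl32 and ndhI-ndhA in Col0 above it, at 0.06 each. Among the 41 spacers of the large single-copy region with protein-coding genes on both sides the medians were -0.18 in leaf, -0.05 in Col0 and 0.02 in pTAC3. The most even across leaf pairs was ndhD-psaC (psaC encodes the iron-sulfur subunit of photosystem I), at -0.241, -0.287, -0.282 and -0.281, with Col0 pairs of -0.248, -0.312 and -0.312. Its mean was -0.27 ± 0.20 in leaf (SE; adjusted p = 0.668, or 0.0462 with the replicate block) and -0.29 ± 0.14 in Col0 (SE; adjusted p = 0.21 by limma).

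At ndhH-rps15, before the small-subunit protein gene rps15, the leaf pairs were -0.236, -0.732, -0.396 and -0.272, and no leaf IPOD library reached an input library. The mean of -0.41 ± 0.18 (SE) was not called (adjusted p = 0.588, or 0.0467 with the block, by limma). The highest pTAC3 mean of the region's spacers was 0.18 at ndhI-ndhA, where pair 1 was 0.634 and pair 3 was -0.232, so its direction differed between pairs.

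The last spacer, rps15-ycf1, had the lowest leaf ratio of the 26 and was the only one in which all leaf pairs and all Col0 pairs were on opposite sides of 0. Leaf scaled depth was 0.709, 0.377, 0.775 and 0.475 in IPOD and 1.06, 0.571, 1.14 and 0.816 in input. Each leaf IPOD library was below the input of its own number. In Col0 it was 0.336, 0.296 and 0.290 in IPOD and 0.290, 0.253 and 0.272 in input, with pairs of 0.170, 0.177 and 0.073. The Col0 numbers were not taken as pairs, and Col0 IPOD 3 and Col0 input 1 were both at 0.290. The distance of a Col0 pair from 0 therefore depends on how the libraries are matched. The leaf mean was -0.55 ± 0.26 (SE; adjusted p = 0.588, or 0.0462 with the block) and the Col0 mean 0.14 ± 0.20 (SE; adjusted p = 0.729) by limma. All 13 bins were below 0 in leaf and 11 were above 0 in Col0. Input over this spacer was thinner in Col0 than in any leaf library, as the values above show, and its part in the opposite signs was not tested.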

How the data were processed

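The authors deposited a coverage signal: read depth at each of 154477 positions of the plastid genome, 1 column for each of 20 libraries, unscaled, on TAIR10 per the file headers. The submitters' processing notes name Trim Galore 0.4.1, Bowtie2 2.2.8.9 and bedtools 2.25.0. Read length, duplicate handling and the placement of reads matching both repeat copies are not given in the sources used here. Depth is not a count of separate reads, so no count model was used.

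From the deposited depth, each library was divided by its mean, averaged in 25 bp bins before the second repeat copy, and log2-transformed after adding 10% of the median bin of its file's libraries (0.0943 for leaf, 0.0777 for seedlings). This understates ratios of thin bins. Genes (129 listed) came from a TAIR10.1 table of names, which gives no strand, so spacers were not classed by strand. Its numbering was checked on 11 of 11 gene pairs of the repeat and on the depth of 20 of 20 libraries, all mirrored at the same sum. Spacers of at least 2 bins and genes of at least 2 bins (100 and 112) made 212 features.

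The contrast of IPOD and input was tested with limma 3.58.1 (lmFit and eBayes in R 4.3.3) over all bins or all features, with Benjamini-Hochberg adjustment and calls at an adjusted p under 0.05. One fit held the 8 leaf libraries and another the 12 of seedlings; the genotype difference was (pTAC3 IPOD minus input) minus (Col0 IPOD minus input). The fit was also run on simulated data, but no outcome is given here, so that run does not bear on the calls. Full statistics are given for spacers called, for the highest and lowest of at least 4 bins per region and comparison, and for trnV-rrn16S and both spacers beside rpl32; called runs and flanking genes are named beside them. The single called bins, trnR-trnN, ndhI-ndhA and the near misses were named after their values were seen. Members and lists were chosen with earlier results of these data known.

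Deviations of same-numbered IPOD and input libraries correlated at 0.634 to 0.912 in leaf, at 0.223 to 0.751 in pTAC3 and at 0.0311 to 0.266 in Col0. The numbers were therefore taken as pairs in leaf and pTAC3, from this check and not from the labels. Alternatives were the replicate block, a pseudocount of 1%, centred libraries, a filter on bins under 25% of the median depth, bins wholly outside genes, each genotype alone, leaf libraries 1 and 3 or 2 and 4 alone, each library left out, and, added after seeing the data, centring with the block and leaving out 2 spacers that hold unlisted genes.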

Additional observations from a re-analysis of the deposited data

Results flagged for a closer look

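Among 28 sets of 4 leaf pairs, 2 held a pair apart from the rest, where chance would mark about 5% of such sets. At ndhD-psaC the leaf pair 1 ratio was -0.241 beside 3 values between -0.287 and -0.281. In rps15-ycf1 leaf pair 4, at -0.677, lay below 3 pairs between -0.518 and -0.496.

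The trnV-rrn16S spacer differed between the genotypes by -0.82 on the log2 scale (pTAC3 minus Col0, adjusted p = 0.0231 by limma), lower in 3 of 3 pTAC3 pairs than in any Col0 pair. The Col0 numbers were not taken as pairs. The lowest Col0 pair matched the lowest IPOD library (2.0) with the highest input library (1.26), so no other Col0 matching gives a lower ratio. Over all alternatives its adjusted p ran up to 0.0765.

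The rps15-ycf1 spacer had a mean of -0.55 in leaf and 0.14 in Col0 seedlings, with every same-numbered pair on its own side of 0. The Col0 numbers were not taken as pairs, and Col0 IPOD and input overlapped, with IPOD 3 and input 1 both at 0.29. The difference between leaf and Col0 was not tested, since the groups differ in age, tissue, growth and order of fixation.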

How the results depend on the processing

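With the replicate block, leaf calls were 13 spacers (9 higher, 4 lower) in place of 0, Col0 calls 127 bins of the repeat (49 higher, 78 lower) in place of 22, 30 small single-copy bins in place of 3 and 14 spacers in place of 6, and difference calls 26 and 6 bins in place of 0 and 6 spacers in place of 1. Beside these, 10.6% and 15.5% of all bins were called higher and lower in Col0 and 1.66% and 3.88% in the difference. Of the 212 features, 18.9% and 17.5% were called higher and lower in Col0 and 6.13% and 10.8% in the difference. The Col0 numbers were not taken as pairs (same-number r 0.0311 to 0.266), and the difference rests on these and on the pTAC3 pairs (0.223 to 0.751). In the small single-copy region the block called rpl32-trnL, trnL-ccsA, ndhD-psaC and psaC-ndhE in Col0 (adjusted p = 0.00969 to 0.0466). No pTAC3 call was made with the block. Centring gave 3 bins of the repeat and 2 spacers in the difference; it moved the repeat medians to 0.001 (Col0), -0.094 (pTAC3) and -0.043 (difference) and the small single-copy medians to -0.078 (pTAC3) and -0.146 (difference). It turned ndhF-rpl32 in Col0 to 0.06 and rpl32-trnL in pTAC3 to -0.057, both also with the block, and the latter was -0.002 over bins wholly outside genes. Centring with the block, added after seeing the data, called 75 and 9 bins (repeat and small single-copy) and 9 spacers in leaf, 104 and 27 bins and 13 spacers in Col0, and 57 and 21 bins and 8 spacers in the difference. Of all bins this fit called 8.27% higher and 0.429% lower in leaf, 15.5% and 5.42% in Col0, and 0.039% and 10.2% in the difference. The shares of the 212 features were 10.4% and 0.943% in leaf, 25.5% and 4.72% in Col0, and 0.472% and 20.3% in the difference. Each genotype alone gave 80 and 14 bins and 11 spacers in Col0. Leaf libraries 1 and 3 alone, the most alike of the leaf libraries, gave 215 and 112 bins and 23 spacers, and 2 and 4 alone gave 0. For the fits of a genotype alone, of leaf libraries alone, or with a library or pair left out, no share of all bins or features is given here. Their counts therefore do not show whether these bins and spacers were called more often than the rest of the genome. Without the rps7-trnV and rrn4.5S-trnR spacers the repeat medians were 0.168 in leaf, 0.013 in Col0, 0.013 in pTAC3 and 0.039 in the difference. The cause of these shifts was not tested. Another pseudocount, the depth filter and bins wholly outside genes kept every count of calls within 1.5 times. Leaving out 1 library gave 5 to 40 repeat bins in Col0, 0 to 3 small single-copy bins and 1 to 8 spacers; in the difference, 0 to 5 and 0 to 1 bins and 0 to 1 spacers; and in leaf 0 to 157 and 0 to 39 bins and 0 to 16 spacers, the highest with the block and without pair 4. Medians then ran from -0.143 to 0.025 (leaf repeat), -0.469 to -0.211 (leaf small single-copy), -0.127 to -0.062 and -0.066 to -0.005 (Col0), -0.063 to -0.007 and -0.2 to 0.182 (pTAC3), and 0.077 to 0.13 and -0.18 to 0.194 (difference). The sign turned in leaf for rrn23S-rrn4.5S (-0.015 to 1.131), rpl32-trnL (-0.239 to 0.031) and trnL-ccsA (-0.011 to 0.422), in Col0 for ndhF-rpl32 (-0.098 to 0.071), in pTAC3 for ndhF-rpl32 (-0.328 to 0.071), rpl32-trnL (-0.155 to 0.189) and ndhI-ndhA (-0.103 to 0.457), and in the difference for ndhF-rpl32 (-0.293 to 0.106). Thin seedling depth over the small single-copy region limits what its spacers can show.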
